A study of Danio rerio with 6 samples.

Results

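Insulin-like growth factor (IGF) signalling in the adult zebrafish ventricle was followed through 10 genes, chosen by symbol from the 27771 genes of the deposited feature lists: the ligands igf1, igf2a and igf2b, the receptors igf1ra and igf1rb, and the binding proteins igfbp1a, igfbp2a, igfbp3, igfbp5b and igfbp6b. All 10 symbols were found, and every gene had at least 121 unique molecular identifiers (UMIs, counts of captured RNA molecules) in the cells kept. The ventricles were profiled by 3' droplet single-cell RNA sequencing, with 1 library for every genotype and stage (6 in all). Wild-type (WT) fish and fish heterozygous for the cloche allele clofv087b (clofv087b/+, het) were sampled without amputation (sham) or after it, at 3 and 7 days post amputation (dpa). Sham is the word in the titles of the uninjured libraries, whereas their treatment label reads untreated. Each library pooled 15 adult ventricles that had been protease-digested in the cold and sorted on Hoechst signal as single cells, so no group had a replicate. Values therefore carry exact 95% counting intervals, which cover counting error only and not the spread between fish, and no test was made.

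IGFs are secreted peptides that bind a receptor tyrosine kinase on the cell surface. The activated receptor recruits insulin receptor substrate adaptors and switches on the PI3K, AKT and TOR cascade of growth and survival. Binding proteins (IGFBPs) hold the ligands in the extracellular fluid, where they can extend their life, block their access to the receptor, or release them when a protease cuts the binding protein. In zebrafish, many genes of the system exist as a and b copies, and igf2b is known as a mitogen for heart muscle during regeneration.

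Depth ranged from 63752936 to 117947578 UMIs per library, and 8241 to 12366 cells per library were kept, 58773 in all of 69400 barcodes. Median depth per kept cell was lower in the het libraries (3354 to 3906.5 UMIs) than in the WT libraries (4064 to 6691 UMIs). Any pair of libraries shared between 23 and 60 cell barcodes. The cells formed 33 clusters, which were assigned by marker genes to 11 classes, each written with the ending -like, and 20.8% of the cells stayed in clusters without a name. The markers of the 6 classes described here each had UMIs in their own class in every library. Levels are given as CPM, the UMIs of a gene scaled to a fixed total for all UMIs of a class in a library. A gene was called higher or lower where the ratio of levels reached 2-fold, with at least 50 UMIs over both libraries and at least 50 cells in each.

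Each gene had its own pattern over the cell classes. Among the classes with enough cells per library to be ordered, igf2b was highest in epicardial and fibroblast-like cells, in endothelial-like cells and in macrophage-like cells. The receptors were found in cardiomyocyte-like, mural-like, endothelial-like and epicardial and fibroblast-like cells and were close to 0 in macrophage-like cells. Igfbp6b was an endothelial-like transcript, and igfbp5b was highest in a cluster without a name, in fibroblast-like cells and in mural-like cells. After injury, igfbp2a and igf2b were lower in epicardial and fibroblast-like cells, in both genotypes. Igfbp5b was higher in the mural-like class as a whole in both genotypes, while the make-up of that class changed.

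**Figure D1:**
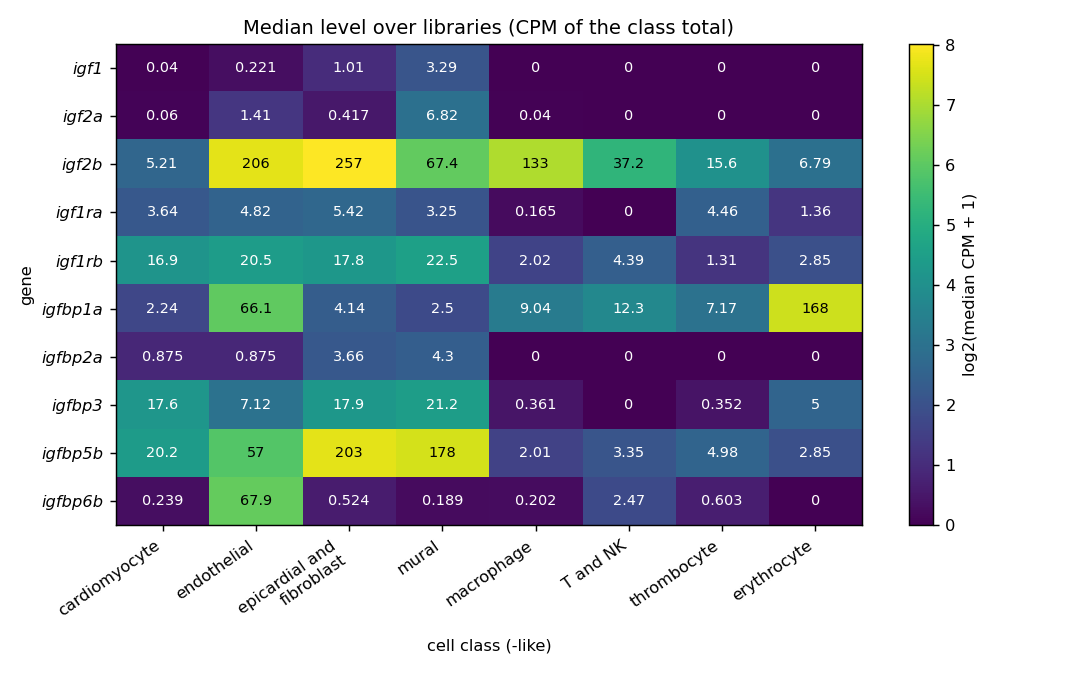
Level of the 10 IGF genes in 8 cell classes. Each cell of the grid gives the median CPM over the libraries with at least 50 cells of the class, and its colour gives log2(median CPM + 1). These were 5 libraries for T and NK-like and for erythrocyte-like cells, and 6 for the other classes. Igf2b reached 257 CPM in epicardial and fibroblast-like cells and 133 CPM in macrophage-like cells, while igfbp6b reached 67.9 CPM in endothelial-like cells.

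The ligand igf2b had 40499 UMIs, against 189 for igf2a and 121 for igf1, and the other two ligands were sparse. These are 3' counts of molecules, which do not scale with transcript length. The median level of igf2b over the libraries was 257 CPM in epicardial and fibroblast-like cells, 206 CPM in endothelial-like cells, 133 CPM in macrophage-like cells and 67.4 CPM in mural-like cells. Neighbouring classes in this order overlapped in their ranges over the libraries, which ran from 193 to 579.8 CPM in the first, from 148 to 272 CPM in the second and from 98.8 to 186 CPM in the third. Macrophage-like cells, which were numerous, held 39.4% of all igf2b UMIs, and epicardial and fibroblast-like cells held 34.2%. Classes with few cells per library were left out of the order, among them the 78 glial-like cells. Over all libraries these had 134 CPM of igf2b (interval 109 to 163), against 138 CPM in macrophage-like cells.

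Free RNA can place a few UMIs in cells that do not express a gene, and erythrocyte-like cells served as the background for this. An igf2b UMI was found in 52.1% of epicardial and fibroblast-like cells (median depth 5172 UMIs), 44.9% of macrophage-like cells (7937 UMIs) and 26.0% of endothelial-like cells (3056 UMIs), against 1.78% of erythrocyte-like cells (758 UMIs). With the cells of at least 1000 UMIs thinned to 1000, these shares were 20.7, 12.6, 12.0 and 1.27%. Shallower cells were left out of the thinned shares. Only 553 of 1741 erythrocyte-like cells entered, and 6457 of 7509 endothelial-like cells. Cardiomyocyte-like cells had a UMI in 7.22% of cells unthinned but 0.769% when thinned, which lies below the erythrocyte-like share. Thinning evens out depth but not the part of free RNA in a cell. Expression of igf2b and background could therefore not be told apart in cardiomyocyte-like cells. In macrophage-like cells, the epicardial and fibroblast markers reached a median of 0.325% of their level in the epicardial and fibroblast-like class, while igf2b reached 52.6%.

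In epicardial and fibroblast-like cells, the outer layer of the heart and its connective tissue cells, igf2b was lower after injury. In the order sham, 3 dpa and 7 dpa, used from here on, the level was 579.8, 241 and 199 CPM in WT and 432, 274 and 193 CPM in het. Both sham libraries lay above all 4 injured libraries. The log2 ratio to sham at 7 dpa was -1.54 in WT (interval -1.64 to -1.45) and -1.16 in het (-1.25 to -1.07), and both passed the 2-fold limit. At 3 dpa it was -1.27 in WT (-1.35 to -1.18), past the limit, and -0.66 in het (-0.75 to -0.57), within it, although TMM scaling (trimmed means, which sets the bulk of genes equal between libraries) brought the het ratio to -1.07.

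The share of these cells with an igf2b UMI moved the same way, from 75.4% at sham to 67.1 and 39.7% at 3 and 7 dpa in WT, and from 71.3% to 64.5 and 40.5% in het. Among the cells of at least 1000 UMIs, thinned to 1000, the shares were 37.8, 20.3 and 13.5% in WT and 32.6, 25.9 and 16.5% in het. The class was not made of the same clusters at each stage. A cluster led by the collagen genes col11a1a and col12a1b was nearly absent outside the 3 dpa libraries, and its cells were deep (median 26048 UMIs), so it held 71.5 and 68.3% of the class's UMIs at 3 dpa in WT and het. Without it the 3 dpa log2 ratios of igf2b were -1.07 in WT and -0.56 in het. Within single clusters the direction stayed: a cluster led by s100a10a and gstm.3 had 629, 221 and 131 CPM in WT and 462, 219 and 132 CPM in het, and a cluster led by fgl2b and ccl25b had 550.3, 364 and 251 CPM in WT and 414, 345 and 284 CPM in het.

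Macrophage-like cells, the phagocytes of the heart, had their lowest igf2b level at sham. It was 98.8, 186 and 132 CPM in WT and 122, 176 and 133 CPM in het, highest at 3 dpa in both genotypes. The log2 ratio at 3 dpa was 0.91 in WT (0.85 to 0.98) and 0.53 in het (0.44 to 0.62), both within 2-fold. Most 3 dpa cells of the class belonged to a cluster led by cd9b, whose own levels were 97.6, 200.3 and 179 CPM in WT and 117, 187 and 146 CPM in het. Summed epicardial and fibroblast markers in macrophage-like cells were also highest at 3 dpa, at 75.2, 403 and 134 CPM in WT and 102, 344 and 145 CPM in het, with 11 to 12 of the 12 markers having a UMI; their part in the igf2b values was not tested.

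Endothelial-like cells, the lining of the chambers and vessels, likewise had their highest igf2b level at 3 dpa, at 148, 239.7 and 174 CPM in WT and 187, 272 and 225 CPM in het. Macrophage markers summed over these cells were highest at 3 dpa as well, at 7457, 9110 and 6907 CPM in WT and 5589, 10420 and 5919 CPM in het, with 9 to 10 of the 10 markers having a UMI, and their part in the igf2b values was not tested. The 4 clusters of the class differed. The largest (4649 cells), led by spock3 and f8, had 173, 409 and 163 CPM in WT and 242, 433 and 192 CPM in het, highest at 3 dpa. The smallest (431 cells), led by edn2 and frzb, had 104, 172 and 473 CPM in WT and 232, 255 and 588 CPM in het, highest at 7 dpa. A cluster led by plvapa and plvapb, genes of fenestrated vessels, stayed between 18.3 and 70.9 CPM in all libraries. The shallow cells of a cluster led by epas1b and grb10a had at most 38 igf2b UMIs in a library, too few to order the stages.

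Igf1, the growth hormone-dependent IGF of the circulation, had 7 to 32 UMIs per library, and 54.5% of all its UMIs lay in epicardial and fibroblast-like cells, where the level ranged from 0 UMIs in WT sham to 1.88 CPM in WT 3 dpa (28 UMIs). By median level over the libraries, igf1 was highest in mural-like cells (23 UMIs), at 3.29 CPM. Epicardial and fibroblast-like cells had 1.01 CPM, with overlapping ranges. Igf1 had too few UMIs for a call in any class. Without the collagen-led 3 dpa cluster, epicardial and fibroblast-like cells had 0, 4.72 and 1.04 CPM in WT (0, 20 and 10 UMIs). In het they had 0.986, 4.36 and 0.718 CPM (4, 12 and 9 UMIs). At 3 dpa this level was highest in both genotypes, with intervals clear of 7 dpa in both but of sham only in WT. Igf2a had 18 to 50 UMIs per library, and a mural-like cluster led by atp1a1b and rgs4 held 51 of its 189 UMIs (24.9 CPM). In the WT sham library 11 igf2a UMIs came from 1 endothelial-like cell. Within the atp1a1b-led cluster the igf2a level was 37.6, 9.89 and 3.36 CPM in WT, from 7, 2 and 2 UMIs. In het it was 88.0, 19.0 and 24.0 CPM, from 21, 3 and 16 UMIs. The intervals of sham and 7 dpa did not overlap in either genotype. These counts lie below the limit of 50 UMIs, so no call was made.

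Both receptor genes encode the tyrosine kinase that binds IGFs. Igf1rb had 6707 UMIs and igf1ra 1389, and cardiomyocyte-like cells held 64.1% and 60.8% of them. The median level of igf1rb was 22.5 CPM in mural-like cells, 20.5 CPM in endothelial-like cells, 17.8 CPM in epicardial and fibroblast-like cells and 16.9 CPM in cardiomyocyte-like cells, with overlapping ranges among these 4 classes and no overlap with the next. Igf1ra had 5.42 CPM in epicardial and fibroblast-like cells, 4.82 CPM in endothelial-like cells, 4.46 CPM in thrombocyte-like cells (from 0 to 14.1 CPM over the libraries) and 3.64 CPM in cardiomyocyte-like cells, with overlapping ranges. In macrophage-like cells, which were a main holder of igf2b, igf1rb stayed between 0.795 and 2.48 CPM and only 18 igf1ra UMIs were counted in 12645 cells. Of cardiomyocyte-like cells (with a median of 16769 UMIs per cell) 22.3% had an igf1rb UMI, against 0.402% of erythrocyte-like cells (758 UMIs). With the cells of at least 1000 UMIs thinned to 1000, the shares were 2.56 and 0%, the second from 553 erythrocyte-like cells.

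In cardiomyocyte-like cells, the muscle of the ventricle, igf1rb was highest at 3 dpa, at 18.1, 29.1 and 15.7 CPM in WT and 10.0, 23.9 and 12.0 CPM in het. Both 3 dpa libraries lay above the other 4, and each het library lay below the WT library of its stage. The log2 ratio of 3 dpa to sham was 0.69 in WT (0.56 to 0.81), within 2-fold, and 1.25 in het (1.04 to 1.47), past it. The clusters behind the class moved with the stage: a cluster led by myh7ba held 74.5 and 75.2% of cardiomyocyte-like cells at 3 dpa (WT and het) but 5.74 and 12.6% at sham, where a cluster led by acta1a held 60.8% in WT and a cluster led by cfap57 held 59.0% in het. These clusters differed in igf1rb level, with 32.2 CPM in the first, 19.3 CPM in the second and 2.97 CPM in the third over all libraries. Within the myh7ba cluster the 3 dpa to sham log2 ratio was -0.48 in WT (-0.84 to -0.09) and 0.04 in het (-0.28 to 0.38).

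Igf1rb in epicardial and fibroblast-like cells had 13.7, 29.4 and 17.0 CPM in WT and 15.0, 27.6 and 18.5 CPM in het, again highest at 3 dpa. At 3 dpa the log2 ratio was 1.1 in WT (0.64 to 1.59), past 2-fold, and 0.88 in het (0.47 to 1.31), within it. TMM scaling gave 0.58 and 0.46, and leaving out the collagen-led 3 dpa cluster gave 0.57 in WT, so the WT call was lost under either. It held in only 5 of the 11 alternatives run, which ranged from 0.55 to 1.21. Igf1ra in cardiomyocyte-like cells ranged from 2.96 to 4.12 CPM over the 6 libraries, and in endothelial-like cells it was 3.23 CPM in WT sham and 7.42 CPM in het sham, a log2 ratio of 1.20 (0.37 to 2.09).

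Binding protein genes had the largest ratios among the pairs of member and class compared. Igfbp2a, whose best-known site of expression in zebrafish is the liver, had 913 UMIs, 40.5% of them in epicardial and fibroblast-like cells. Its level there was 31.0, 0.471 and 4.84 CPM in WT and 46.1, 0.345 and 2.47 CPM in het, from 95, 7 and 47 UMIs and from 187, 3 and 31 UMIs. Both sham libraries lay above all injured ones, and the 3 dpa libraries were lowest. The log2 ratio at 3 dpa was -6.04 in WT (-7.40 to -4.94) and -7.06 in het (-9.35 to -5.49), and at 7 dpa it was -2.68 (-3.22 to -2.16) and -4.22 (-4.82 to -3.67).

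Cells with an igfbp2a UMI made up 12.9, 0.777 and 2.09% of the class in WT and 15.1, 0.399 and 1.27% in het, against 0.0574% of erythrocyte-like cells over all libraries. Without the collagen-led cluster the 3 dpa log2 ratios were -4.24 and -5.40. The s100a10a-led cluster alone held 35.9% of all igfbp2a UMIs and had 66.5, 1.59 and 9.94 CPM in WT and 103, 3.25 and 5.12 CPM in het. A further 18.9% lay in an unnamed cluster of 213 cells led by g0s2, rgrb and rbp7b, at 50.2 CPM.

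Igfbp2a was also lower after injury in cardiomyocyte-like cells, from a low level of 1.83, 0.794 and 0.955 CPM in WT and 3.07, 0.309 and 0.185 CPM in het. Its 3 dpa log2 ratio was -1.21 in WT (-1.81 to -0.63) and -3.31 in het (-4.57 to -2.27). At 7 dpa it was -0.94 in WT (-1.49 to -0.41), within 2-fold, and -4.05 in het (-5.31 to -3.01). The cfap57-led muscle cluster had 2.94 CPM of igfbp2a over all libraries against 0.164 CPM in the myh7ba-led cluster that dominated 3 dpa, and within the cfap57-led cluster the 3 dpa ratio was -0.33 in WT (-1.06 to 0.36) and -1.62 in het (-3.12 to -0.43).

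**Figure D2:**
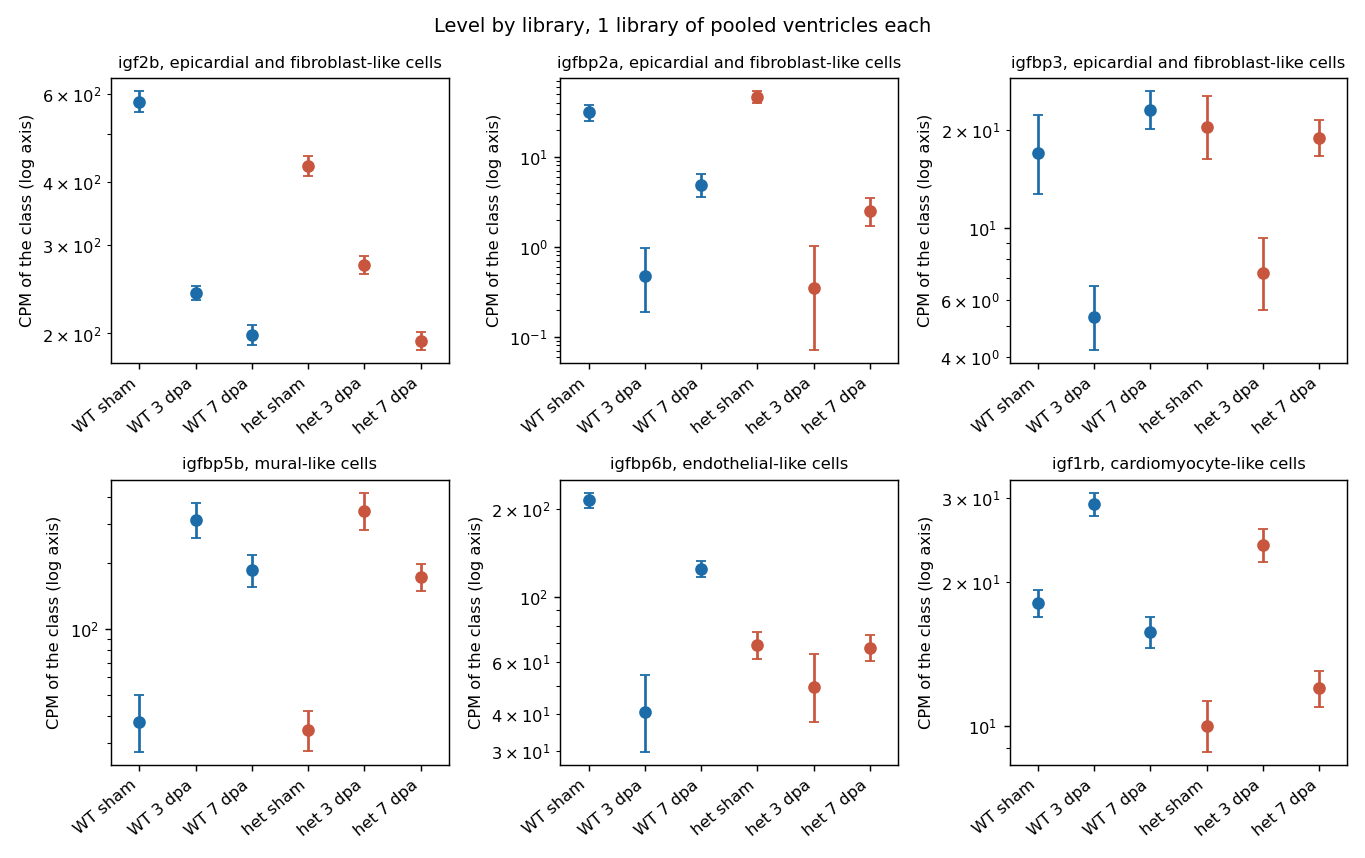
Levels in the 6 libraries for 6 pairs of gene and class, in CPM of the class on a log axis, WT in blue and het in red. Points are single libraries and bars are exact 95% Poisson intervals. Igf2b and igfbp2a in epicardial and fibroblast-like cells were highest at sham, and igfbp5b in mural-like cells was lowest at sham, in both genotypes.

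Igfbp3, in mammals the main IGF carrier of the circulation, had 5419 UMIs, of which cardiomyocyte-like cells held 73.2%. Its median level was 21.2 CPM in mural-like cells, 17.9 CPM in epicardial and fibroblast-like cells and 17.6 CPM in cardiomyocyte-like cells, with overlapping ranges, and 7.12 CPM in endothelial-like cells, whose range lay below that of cardiomyocyte-like cells but overlapped those of the other two. Cardiomyocyte-like levels were 13.7, 20.0 and 15.9 CPM in WT and 19.2, 19.3 and 15.4 CPM in het, all within 2-fold of each other. In epicardial and fibroblast-like cells the values were 17.0, 5.31 and 23.1 CPM in WT and 20.5, 7.25 and 18.9 CPM in het. Here the 3 dpa libraries were the lowest in each genotype, with log2 ratios of -1.68 (-2.20 to -1.14) and -1.50 (-1.99 to -1.01). Both calls were lost with the mean over single cells (-0.77 and -0.64). Without the collagen-led 3 dpa cluster the ratios were -1.14 and -0.53, the second within 2-fold, and in the fgl2b-led cluster they were -0.37 (-1.15 to 0.40) and -0.38 (-1.0 to 0.23).

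Igfbp5b, which in mammals binds IGFs and matrix and is common in smooth muscle and bone, had 29474 UMIs. An unnamed cluster of 1471 cells led by zgc:153704, angptl7 and rspo1 held 38.4% of them at 964 CPM. Its level was 863, 436 and 890.3 CPM in WT and 1160.0, 483 and 1018 CPM in het, lowest at 3 dpa in both genotypes. Among the named classes the median was 203 CPM in epicardial and fibroblast-like cells, 178 CPM in mural-like cells, 57.0 CPM in endothelial-like cells and 20.2 CPM in cardiomyocyte-like cells. The epicardial and fibroblast-like levels were 234, 235 and 145 CPM in WT and 251, 173 and 158 CPM in het, within 2-fold of sham; without the collagen-led cluster the het 3 dpa ratio was -1.46.

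In mural-like cells, the pericytes and smooth muscle around vessels, igfbp5b was higher after injury. The level was 37.5, 313 and 185 CPM in WT and 34.4, 346 and 172 CPM in het, from 46, 123 and 141 UMIs and from 91, 109 and 207 UMIs. Both sham libraries lay below all 4 injured ones. The log2 ratio at 3 dpa was 3.06 in WT (2.56 to 3.59) and 3.33 in het (2.91 to 3.75), and at 7 dpa it was 2.30 (1.81 to 2.82) and 2.32 (1.96 to 2.69).

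The make-up of the mural-like class moved with it. The atp1a1b-led cluster held 15.2, 51.5 and 78.1% of the class's UMIs in WT and 9.02, 50.1 and 55.4% in het, and a cluster led by rgs5a held most of the rest at sham. Within the atp1a1b-led cluster igfbp5b was 124, 519 and 230.0 CPM in WT and 130, 683 and 266 CPM in het, where the 3 dpa values rest on 42 and 33 cells. The log2 ratio in that cluster at 7 dpa was 0.90 in WT and 1.03 in het. It held 23 of 46, 105 of 123 and 137 of 141 igfbp5b UMIs of the class in WT. In het it held 31 of 91, 108 of 109 and 177 of 207. The rest lay in the rgs5a-led cluster, for which a higher level at both stages and in both genotypes was not shown. With cells named individually by marker UMIs the ratios of the class were 1.86 and 0.95 at 3 dpa (WT, het) and 1.25 and 0.07 at 7 dpa, so both het calls were lost. Summed epicardial and fibroblast markers in the class were 629, 2114 and 1373 CPM in WT and 765, 1353 and 1493 CPM in het, with 9 to 11 of 12 markers having a UMI. Macrophage markers were 1422, 3361 and 5604 CPM in WT and 521, 3071 and 2440 CPM in het (9 to 10 of 10), and thrombocyte markers 288, 1892 and 537 CPM in WT and 362, 748 and 442 CPM in het (3 to 6 of 6). All 3 sets were lowest at sham in each genotype, and their part in the result was not tested.

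Igfbp5b in endothelial-like cells was 58.6, 98.2 and 55.4 CPM in WT and 26.5, 70.1 and 35.8 CPM in het. Every het library lay below the WT library of its stage, and het 3 dpa lay above het sham, at a log2 ratio of 1.40 (0.99 to 1.80). At sham the log2 ratio of het to WT was -1.14 (-1.44 to -0.86), but the mean over single cells gave -0.48 and cells named individually gave -0.43, both within 2-fold. The edn2-led cluster had most of it per UMI, at 710 CPM in WT sham and 166 CPM in het sham.

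Igfbp6b, a binding protein that in mammals prefers IGF2, had 3465 UMIs and endothelial-like cells held 86.6% of them, with a range over the libraries that did not overlap any other named class. A UMI was found in 12.1% of endothelial-like cells, against 0.0574% of erythrocyte-like cells. The level was 213, 40.7 and 125 CPM in WT and 68.4, 49.6 and 67.3 CPM in het, so that WT sham was the highest library and WT 3 dpa the lowest. In WT the log2 ratio to sham was -2.39 at 3 dpa (-2.85 to -1.96) and -0.77 at 7 dpa (-0.90 to -0.65), whereas in het it was -0.47 (-0.89 to -0.06) and -0.02 (-0.23 to 0.19). The het to WT log2 ratio was -1.64 at sham (-1.81 to -1.47), and it stayed between -1.83 and -1.55 in the alternatives run. It was 0.28 at 3 dpa (-0.30 to 0.88) and -0.89 at 7 dpa (-1.07 to -0.72).

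In the spock3-led cluster WT sham was again highest and WT 3 dpa lowest, with 209, 12.5 and 133 CPM in WT and 28.3, 53.3 and 63.6 CPM in het. In the edn2-led cluster the level was 631, 172 and 259 CPM in WT and 369, 198 and 130.0 CPM in het, so sham was highest there in both genotypes. Erythrocyte markers in endothelial-like cells differed between the libraries too, at 148, 395 and 816 CPM in WT and 537, 573 and 708 CPM in het, and their part in these values was not tested.

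Igfbp6b was nearly absent from epicardial and fibroblast-like cells except at 3 dpa. The class had 1 UMI in WT sham, 237 in WT 3 dpa and 0 in het sham, 68 in het 3 dpa, with levels of 15.9 and 7.82 CPM at 3 dpa. The log2 ratio in WT was 5.61 (3.12 to 10.92). The het level at 3 dpa was 10.58-fold higher than a limit of 3 UMIs set in place of the count of 0 in het sham. The exact interval of the het log2 ratio started at 3.07, a lower bound than this fold. Of these UMIs, 235 in WT and 68 in het came from the collagen-led 3 dpa cluster, and 2 and 0 remained without it.

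Igfbp1a, in zebrafish a hypoxia-inducible gene that slows growth, had 5253 UMIs. Endothelial-like cells held 30.8% of them, and the cluster led by plvapa and plvapb alone held 28.8%, with 434, 273 and 230.0 CPM in WT and 243, 321 and 264 CPM in het. As a whole the endothelial-like class had 60.0, 116 and 37.6 CPM in WT and 69.2, 111 and 63.0 CPM in het, highest at 3 dpa in both genotypes and within 2-fold of sham. The plvapa-led cluster held 13.0, 41.2 and 13.8% of the class's UMIs in WT and 27.7, 32.7 and 22.6% in het. Its own WT level was highest at sham, unlike that of the class. The part of this make-up in the class values was not tested. Erythrocyte-like cells, few and shallow, had the highest median of the classes ordered. It was 168 CPM, against 66.1 CPM in endothelial-like cells, with overlapping ranges. An igfbp1a UMI was found in 5.74% of endothelial-like and 11.3% of erythrocyte-like cells. Erythrocyte-like cells therefore cannot serve as the background for this gene. Their WT sham library had too few cells (36) to be compared, and 97 of its 152 UMIs came from 1 cell, whereas the highest cell of WT 7 dpa held 33 of 554 UMIs. In T and NK-like cells 27 of the 30 UMIs of WT 7 dpa and 56 of the 89 of het 7 dpa came from 1 cell each, so the igfbp1a ratios of that class rest largely on single cells.

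Over whole libraries igf2b ranged from 73.8 to 102 CPM, igfbp6b from 2.63 to 12.6 CPM, igfbp2a from 0.227 to 6.31 CPM and igf1rb from 9.6 to 21.6 CPM, values in which fewer cells of a type and less RNA per cell cannot be told apart. Igfbp6b and igfbp2a were lowest, and igf1rb and igf2b highest, in the 3 dpa library of each genotype.

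Counted over all pairs of member gene and class, 24 pairs could be compared at 3 dpa in both genotypes. Of these, 2 were at least 2-fold higher in both (igfbp6b in epicardial and fibroblast-like cells and igfbp5b in mural-like cells), against a background of 11.6% of all pairs of gene and class, and 3 were lower in both (igfbp2a in cardiomyocyte-like and in epicardial and fibroblast-like cells, and igfbp3 in the latter), against 3.08%. At 7 dpa, of 26 pairs, 1 was higher in both (igfbp5b in mural-like cells, background 3.08%) and 2 were lower (igfbp2a and igf2b in epicardial and fibroblast-like cells, background 1.04%). Both stages share the sham library of their genotype, so their values are not independent.

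In single comparisons to sham, WT 3 dpa had 4 pairs higher (background 21.1%) and 6 lower (6.47%) of 27, and het 3 dpa had 4 higher (16.7%) and 5 lower (8.76%) of 25. WT 7 dpa had 4 higher (7.23%) and 3 lower (5.09%) of 27, and het 7 dpa had 3 higher (6.5%) and 4 lower (3.56%) of 30. The median log2 ratio of the members was 0.55 at WT 3 dpa against 0.343 over all genes, -0.118 at het 3 dpa against 0.192, 0.159 at WT 7 dpa against 0.0429 and 0.198 at het 7 dpa against 0.0148. The 3 dpa libraries differ from sham in the bulk of genes as well: TMM scaling shifts log2 ratios at 3 dpa by -0.52 in WT and -0.41 in het in epicardial and fibroblast-like cells, and by -0.56 in both genotypes in mural-like cells.

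**Figure D3:**
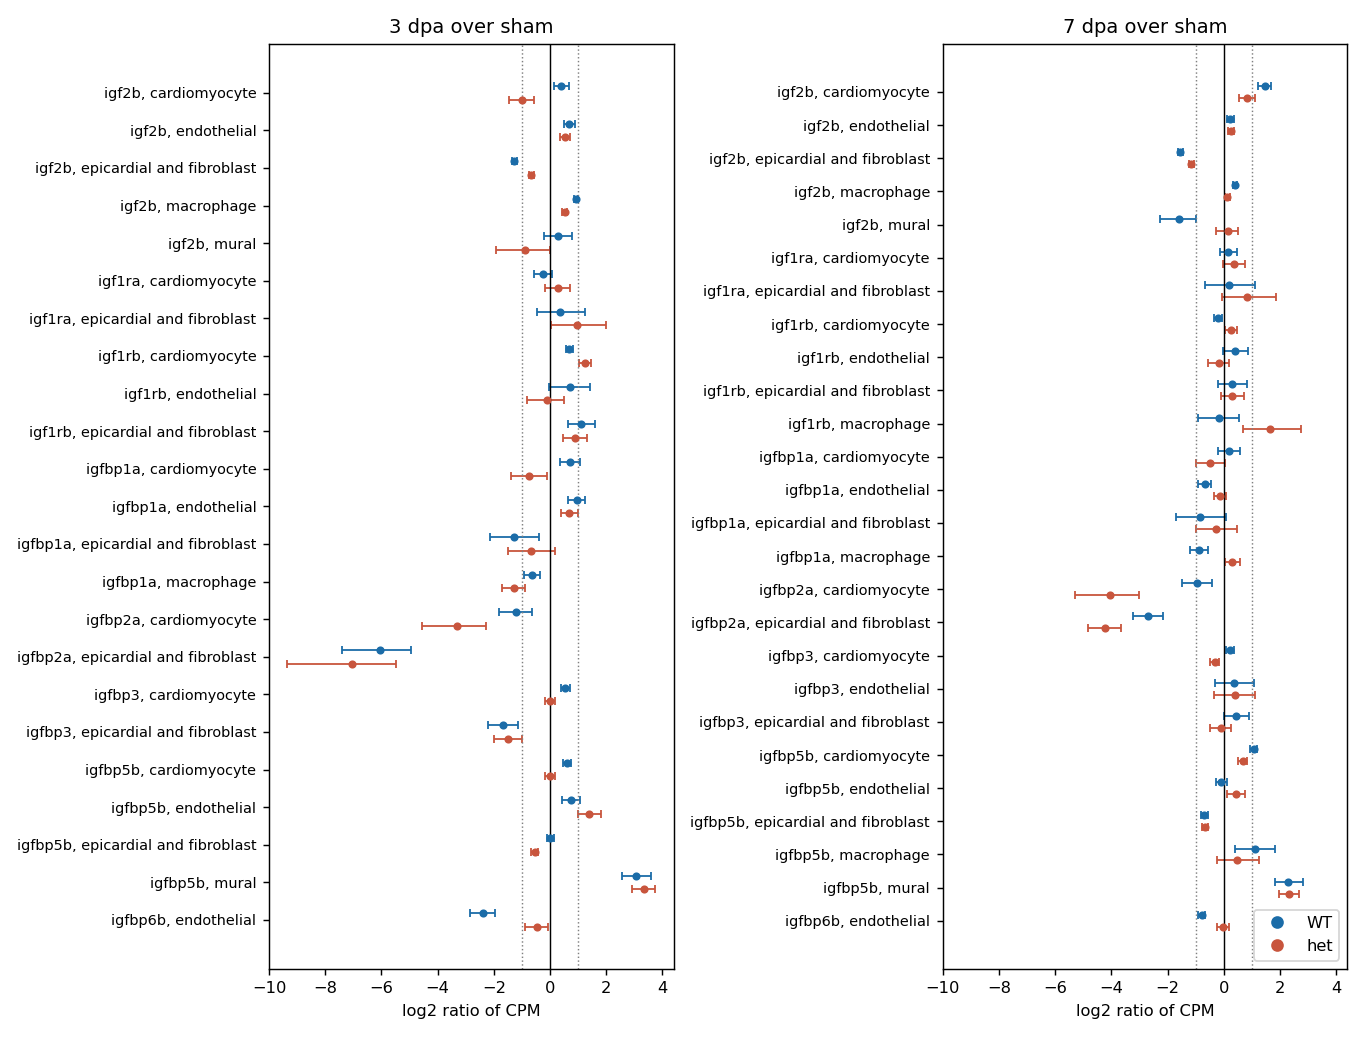
Log2 ratio of the level at 3 and 7 dpa to sham for pairs of member gene and class that could be compared in both genotypes, WT in blue and het in red, with exact 95% intervals and dotted lines at 2-fold. Igfbp2a lay furthest below 0 in epicardial and fibroblast-like cells (-6.04 and -7.06 at 3 dpa) and igfbp5b furthest above it in mural-like cells. Igfbp6b in epicardial and fibroblast-like cells is not drawn because het sham had 0 UMIs.

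Between the genotypes no pair of member gene and class passed 2-fold in the same direction at 2 or more stages, of 28 that could be compared, where the background was 0.323% higher and 0.907% lower. At sham 1 pair was higher (igf1ra in endothelial-like cells, background 3.91%) and 3 were lower (background 4.85%) of 27: igfbp6b and igfbp5b in endothelial-like cells and igf1rb in macrophage-like cells. The last was at -1.08, and at -0.79 with the mean over single cells. At 3 dpa none was higher (0.789%) and 5 were lower (4.81%) of 24, and at 7 dpa 3 were higher (2.18%) and 2 lower (1.75%) of 29. The 7 dpa pairs included igfbp2a in cardiomyocyte-like cells at -2.37 (-3.67 to -1.27), from 8 UMIs in het and 45 in WT, and igfbp1a in erythrocyte-like cells at -3.53 (-4.04 to -3.06). The 3 dpa pairs included igf2b in mural-like cells at -1.81, where the 7 dpa ratio was 1.11 in the other direction; with cells named individually both were within 2-fold (-0.56 and 0.67).

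Other genes of the IGF pathway were followed with a list of 78 symbols, of which 75 were found. Of 224 pairs of gene and class at 3 dpa, 13 were higher in both genotypes and 6 were lower, where the background over all pairs of gene and class was 11.6 and 3.08%. Neither count stood above that background by share. Of these 19 pairs 14 lay in epicardial and fibroblast-like cells, where the median log2 ratio over all genes was 0.81 in WT and 0.68 in het. The share of all genes called in that class is not given here, so the 14 pairs are not read as a result about the pathway. The proteases that cut IGFBPs and their inhibitors had 4 pairs higher and none lower of 11, and the growth hormone axis had none higher and 4 lower of 37. The protease gene htra1a had no UMI at sham in epicardial and fibroblast-like cells of either genotype and 348 and 115 UMIs at 3 dpa (WT, het; 23.4 and 13.2 CPM). The protease inhibitor stc1 likewise had 0 UMIs at sham and 98 and 83 UMIs at 3 dpa, and stc2a, of the same stanniocalcin family, had 2.29 CPM at sham and 8.94 CPM at 3 dpa in WT and 2.96 and 11.7 CPM in het.

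Also in epicardial and fibroblast-like cells, the binding protein gene igfbp1b was 198 CPM at sham and 2.82 CPM at 3 dpa in WT, and 47.6 and 1.04 CPM in het. Growth hormone receptor genes were lower at 3 dpa as well, ghrb at 245 and 32.9 CPM in WT and 150.4 and 43.7 CPM in het, and ghra at 31.0 and 9.08 CPM in WT and 33.3 and 10.1 CPM in het. Without the collagen-led 3 dpa cluster stc1 had 1 UMI in each genotype and htra1a had 14 and 2, and stc2a, at 0.708 and 2.54 CPM, was no longer above sham in either genotype. The binding protein igfbp1b was still lower than at sham, at 9.91 and 2.91 CPM. The call of ghrb in both genotypes was lost, at 83.3 CPM in WT and 103 CPM in het, the latter within 2-fold of sham, as was that of ghra, at 17.9 and 16.7 CPM. Counted anew without that cluster, 7 pathway pairs over all classes passed in both genotypes, 6 higher and 1 lower. In cardiomyocyte-like cells the protease gene pappaa was 1.34 CPM at sham and 5.58 CPM at 3 dpa in WT and 0.379 and 4.02 CPM in het. In endothelial-like cells igfbp7, a related secreted protein of low IGF affinity in mammals, was 23.1 and 58.4 CPM in WT and 23.7 and 50.4 CPM in het. Its log2 ratios were 1.34 in WT and 1.09 in het. TMM scaling shifts the ratios of this class by -0.48 in WT and -0.26 in het, which takes both within 2-fold.

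At 7 dpa 4 of 254 pathway pairs were higher (background 3.08%) and 6 lower (1.04%) in both genotypes. The adaptor gene irs2a was lower in cardiomyocyte-like cells (log2 ratios of -1.34 in WT and -1.37 in het) and in epicardial and fibroblast-like cells (-1.41 and -2.41), and ghrb was lower in the latter (-1.57 and -1.24). In mural-like cells the lipid phosphatase gene ptenb was higher (2.35 and 1.80), as was the transcription factor gene foxo1a (1.21 and 1.72), which AKT restrains, and htra1a was lower (-2.37 and -2.12). These mural-like values moved with the make-up of the class, in which the rgs5a-led cluster went from 116 cells at sham to 19 at 7 dpa in WT and from 217 to 69 in het. Within the atp1a1b-led cluster foxo1a was not higher at 7 dpa than at sham. It had 129 and 82.3 CPM in WT (24 and 49 UMIs) and 50.3 and 39.0 CPM in het (12 and 26 UMIs). The intervals of sham and 7 dpa overlapped in both genotypes. There ptenb was 43.0 and 181 CPM in WT and 130 and 195 CPM in het (within 2-fold), and htra1a had 0 UMIs at sham and 2 and 4 UMIs at 7 dpa (WT, het).

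Between the genotypes 11 of 265 pathway pairs were lower in het at 2 or more stages (background 0.907%) and none was higher (0.323%). The PI3K, AKT and FOXO group, with 85 of the 265 pairs, had 5 of the 11. The adaptor gene irs2b in cardiomyocyte-like cells was 345, 131 and 159 CPM in WT and 76.5, 91.2 and 61.3 CPM in het, below WT throughout, and the log2 ratios were -2.17, -0.52 and -1.37. At sham the acta1a-led cluster held 60.8% of this class in WT and 24.4% in het, and the cfap57-led cluster 30.6 and 59.0%. At 7 dpa the acta1a-led cluster held 60.1 and 53.8%. The part of this make-up in the irs2b values was not tested. Foxo3b, another transcription factor gene of that cascade, was lower by log2 ratios (sham, 3 and 7 dpa) of -1.45, -0.82 and -1.14 among endothelial-like cells and -2.15, -0.39 and -1.25 among epicardial and fibroblast-like cells. Igfbp1b in epicardial and fibroblast-like cells was lower in het at sham (-2.06) and 3 dpa (-1.45) and higher at 7 dpa (1.30).

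Genes whose levels followed the members most closely were ranked by Pearson correlation of log2(CPM + 10) over 51 pools of class and library, which share libraries and depth, among 13451 genes. Igfbp5b was followed by lama4 (0.941), bahcc1a (0.941) and pmp22a (0.938), and igfbp6b by si:dkey-165a24.9 (0.950), spint2 (0.947) and ugt5g1 (0.946). Igf2b was followed by krt8 (0.910), reep3a (0.887) and ms4a17a.11 (0.887), and igf1rb by skib (0.919), ryk (0.897) and tgfbr3 (0.891). The closest gene to igf1ra was cacna2d1a (0.836), to igfbp1a aqp1a.1 (0.817), to igfbp2a fabp10a (0.861) and to igfbp3 pabpc1b (0.873).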

How the data were processed

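Raw UMI counts were deposited by the authors as 1 matrix per library, per the file headers (software version 3.0.2); the submitters' processing notes name Cell Ranger 3.0.2, Seurat 3.1.4 and the build GRCz11, with no role given. About 12000 cells of more than 85% viability had been loaded per library, per the labels' protocols. From these counts, barcodes were kept that had 200 or more genes, 500 or more UMIs and no more than 30% of UMIs from mitochondrial genes. Likely doublets were scored per library against 2 simulated doublets per cell among 45 neighbours, and the highest scores, 0.8% for every 1000 barcodes (7.56 to 11.9% of a library), were removed. The number of neighbours was set after the clusters had been seen, because a wider setting removed B cells. Cells were scaled to 10000 counts and log-transformed. The 2000 most variable genes, the members and the pathway genes left out, gave 30 principal components, which were clustered by the Leiden method at resolution 1 on 15 neighbours (Python 3.11.15, numpy 2.4.6, scipy 1.17.1, scikit-learn 1.9.0, scanpy 1.11.5, igraph 0.11.9, leidenalg 0.10.2, matplotlib 3.10.9).

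Clusters were named for the class with the highest mean log2 fold of its markers. The mean had to reach 0.75, its lead over the next class 0.5, and 3 markers had to be raised and detected in 10% of the cells. These limits come from an earlier analysis of the same data. UMIs were summed per class and library. Intervals for levels are exact Poisson, for ratios exact conditional binomial and for shares exact (Clopper-Pearson). A count of 0 was set to 3 UMIs for bounds. The code for ratios and intervals was checked on simulated counts with known folds, which it recovered; this checks the computation only. TMM and median-of-ratios factors were computed by code written after those methods. Named genes were all 10 members, and of the pathway list some of those past 2-fold in both genotypes, or at 2 or more stages, at most 6 per class. Other pathway genes that passed, such as igf2r and shc1 in endothelial-like cells at 3 dpa, were not described. The members, the lists and the rules were chosen with earlier results of these data known. The a and b copies of a gene can share 3' reads, and how the submitters' counting split them is not given in the sources used here. No sequence is printed.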

Additional observations from a re-analysis of the deposited data

Results flagged for a closer look

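The results below were picked out because a log2 ratio had opposite signs in both genotypes or at a pair of stages, with both counting intervals clear of 0. Using the intervals in this way is narrower than asking for a difference in sign alone. With 1 library per group, the difference was not tested for any of them. Small ratios here can also change with the scaling. TMM scaling shifts het over WT in macrophage-like cells at 3 dpa by 0.15, which takes the igf2b ratio of -0.08 above 0. In cardiomyocyte-like cells it shifts WT 3 dpa over sham by -0.33, which takes the lower end of the igf2b interval (0.13) below 0.

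For injury over sham, WT and het differed in sign for igf2b in cardiomyocyte-like cells at 3 dpa (0.41 in WT and -1.01 in het), where igf2b could not be told apart from background. The same held at 3 dpa for igfbp1a in cardiomyocyte-like cells (0.71 and -0.75). At 7 dpa it held for igfbp1a in macrophage-like cells (-0.88 and 0.30), igf1rb in cardiomyocyte-like cells (-0.20 and 0.26) and igfbp3 in cardiomyocyte-like cells (0.22 and -0.32).

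For het over WT, stages differed in sign for igf2b in epicardial and fibroblast-like cells (-0.43 at sham and 0.18 at 3 dpa), in macrophage-like cells (0.31 at sham and -0.08 at 3 dpa) and in mural-like cells (-0.63 at sham, -1.81 at 3 dpa and 1.11 at 7 dpa). Igf1rb in macrophage-like cells went from -1.08 at sham to 0.74 at 7 dpa. Igfbp2a was higher in het at sham and lower at 7 dpa, both in cardiomyocyte-like cells (0.74 and -2.37) and in epicardial and fibroblast-like cells (0.57 and -0.97). The cfap57-led muscle cluster had 2.94 CPM of igfbp2a over all libraries, against 0.293 CPM in the acta1a-led one. At sham it held 31.4% of the cardiomyocyte-like UMIs in WT and 58.1% in het, and at 7 dpa 25.8 and 27.9%. The part of this make-up in the ratios was not tested. Igfbp5b was higher in het at sham and lower at 3 dpa in cardiomyocyte-like cells (0.39 and -0.21) and in macrophage-like cells (0.83 and -1.75), and in epicardial and fibroblast-like cells it was -0.45 at 3 dpa and 0.12 at 7 dpa. The macrophage-like ratios rest on 31 and 25 UMIs at sham (WT, het) and 63 and 12 at 3 dpa, at most 2.93 CPM. The ratio of -1.75 went up to -0.70 in the alternatives run, and the part of free RNA was not tested.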

How the results depend on the processing

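No paired analysis was possible because each group is 1 library and carries no replicate number. Depth limits igf1, igf2a and the rarer classes most. A floor of 10 in place of 50 UMIs took the count of member pairs past 2-fold from 4 to 8 (het over WT at sham), 5 to 9 (3 dpa) and 5 to 13 (7 dpa), and gave 17 at WT 3 dpa, 20 at het 3 dpa, 13 at WT 7 dpa and 13 at het 7 dpa; the pathway counts became 33 at 3 dpa, 23 at 7 dpa and 21 for genotype. Het over WT at 3 dpa went from 5 to 3 with TMM, median-of-ratios factors or doublets kept, to 2 with the mean of single cells and to 0 with cells named individually. Keeping doublets gave 7 at sham and 8 at 7 dpa, and the stricter cell filter gave 3 at 7 dpa. The pathway count at 3 dpa went from 19 to 9 with the mean of single cells and to 7 without the collagen-led 3 dpa cluster, an alternative chosen after seeing the data. The pathway count for genotype went from 11 to 4 with cells named individually. Igfbp5b in macrophage-like cells turned to -0.63 at WT 3 dpa and -0.47 at WT 7 dpa with doublets kept. Igf2b in cardiomyocyte-like cells turned to 0.06 at het 3 dpa with doublets kept and to -0.46 at WT 7 dpa with cells named individually. Except where fewer genes or cells enter by construction, the cause was not tested. Clustering at resolution 2, or with the members among the variable genes, kept each of these counts within 1.5 times.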
